A study of Arabidopsis thaliana with 6 samples.

Results

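Transcripts of a pair of enzyme families that modify small molecules, the cytochromes P450 and the tau class of glutathione transferases, were examined in Arabidopsis roots. Members were all genes whose symbol or synonym in the annotation tables is a P450 name (CYP, digits, a letter, digits) or GSTU with a number, and that have a probe set annotated to them alone. This rule gave 33 genes of the 13356 with a probe set of their own, namely 22 P450 genes and 11 GSTU genes. The annotation names 240 P450 genes and 29 GSTU genes in all, and the others are not analysed here. The wild type was the Columbia ecotype (Col), and the mutant carried the spy-3 allele of SPINDLY (SPY) in the same ecotype, so that only 1 mutant allele was measured. SPY encodes a protein that attaches sugars to other proteins and represses gibberellin signaling. Whole roots were harvested after 7 d from seedlings grown without a treatment on vertical agar plates (16 h light, 8 h dark, 22 °C), and total RNA from 3 root samples of each genotype was hybridized to 6 Affymetrix ATH1 arrays, on which a probe set of short oligonucleotides yields 1 signal. The samples of a genotype are biological replicates according to the methods, which do not state whether they were harvested apart. The p-values therefore measure only the spread between these arrays, which may be partly technical.

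Cytochromes P450 are heme enzymes, mostly anchored in the endoplasmic reticulum, that insert oxygen into hormones, sterols, phenolics, defense compounds and foreign chemicals. Tau glutathione transferases, a class found in plants, join glutathione to reactive or toxic compounds, and many of them are induced by herbicides and oxidative stress. Of the measured P450 genes, 18 belong to the CYP71B subfamily, for which the annotation lists 36 genes. Its best-known member, PAD3, which completes the synthesis of the phytoalexin camalexin, is not analysed here. The remaining 4 are CYP84A4, CYP78A9, CYP79A2 and CYP51G2. CYP51G2 and CYP71B27 are annotated as transcribed pseudogenes. Each member has a single probe set.

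The share of members called between the genotypes was close to that of all probe sets. All 22746 probe sets were tested with limma, and p-values were adjusted over them by the Benjamini-Hochberg method. At an adjusted p of 0.05, 1 P450 gene fell in spy-3 (CYP71B29), 1 GSTU gene rose (GSTU23) and 31 members did not pass. This share of members, 6.06%, lay beside 5.77% of all probe sets, of which 2.64% were higher and 3.13% were lower. The median log2 fold change was -0.21 over the P450 genes and 0.07 over the GSTU genes, against 0.02 over all probe sets. Of the 22 P450 genes, 13 had a mean signal under 32, where fold changes were imprecise (standard errors 0.33 to 0.95). Among members above the median signal, the medians were -0.1 and 0.07, against 0.01 over all such probe sets. At an unadjusted p of 0.05, 9 of the 33 members were called, 3 higher and 6 lower, against 19.2% of all probe sets. At the stricter thresholds that the study used (adjusted p of 0.01 and 1.5-fold), limma called none of the members and 1.24% of all probe sets. The methods name an analysis of variance without giving its form, and it was run here one-way on each probe set. It called no member at an adjusted p of 0.05 (2.89% of all probe sets) and 7 at an unadjusted p of 0.05 (17.0% of all probe sets). The 3 wild-type and 3 spy-3 signals did not overlap for 10 members (5 higher and 5 lower), or 30.3%, against 24.2% of all probe sets. With 3 arrays in each group, the smallest p of a two-sided exact permutation test is 0.1, and the calls rest on the variance shared across probe sets in limma.

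The signals spanned a wide range, and precision followed them. The median signal of an array was 85.4 to 87.2, and 4.48% to 6.21% of its signals were under 1. Of the 33 members, 13 were brighter than the median probe set, 5 lay between it and a signal of 32, and 15 were dimmer than 32. Both calls were among the brighter 13, where 9 members did not overlap between the genotypes. Of all probe sets brighter than the median, 9.83% were called and 32.4% did not overlap. The standard error of the log2 fold change was 0.05 to 0.16 among the brighter 13 and 0.33 to 0.95 among the dimmest 15. The 0.33 is that of CYP71B31, whose signals were all under 1 and were set to 1 before the fit. Brightness depends on the probes as well as on the transcript, so signals of different genes are not set against each other as transcript levels.

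**Figure D1:**
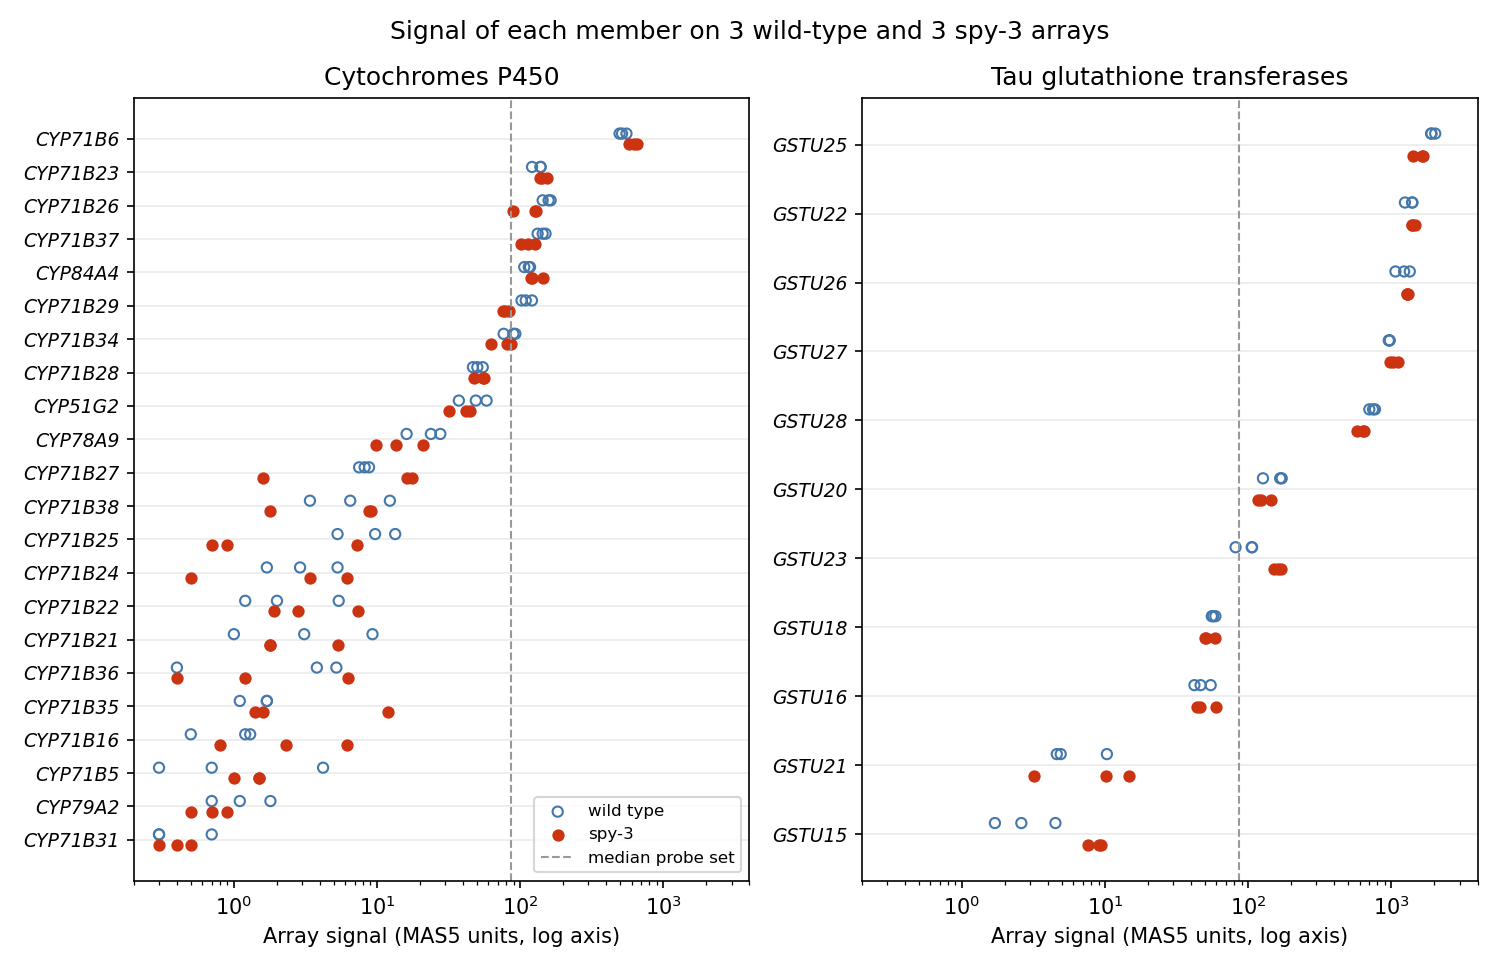
Signals of the 22 P450 genes (left) and 11 GSTU genes (right) on each array, in MAS5 units on a log axis. Open circles are the 3 wild-type arrays, filled circles the 3 spy-3 arrays, and the dashed line marks a signal of 85.9, the median probe set. The circles separate by genotype for 10 of the 33 members (30.3%, against 24.2% of all probe sets). Of these, 9 are above the median signal, among them the called GSTU23 and CYP71B29. Among the members under a signal of 32, only those of GSTU15 separate.

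Among the tau glutathione transferases, GSTU23 (AT1G78320) had signals of 106.5, 105.8 and 81.6 on the wild-type arrays and 169.8, 162.4 and 151.3 on the spy-3 arrays. Every spy-3 signal was thus above every wild-type signal. The wild-type mean was 98.0 ± 14.2 (SD, n = 3) and that of spy-3 was 161.2 ± 9.3 (SD, n = 3), 1.66-fold higher (log2 fold change 0.73 with a standard error of 0.12; limma, adjusted p = 0.0227). The call was lost in limma without wild-type replicate 1 or 2 or any 1 spy-3 replicate (adjusted p = 0.0623 to 0.0938), and by the analysis of variance (adjusted p = 0.10), while the log2 fold change stayed between 0.60 and 0.79 in all 6 omissions. With 64 added to every signal it was 0.48, and the call was kept (adjusted p = 0.0102 from limma).

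GSTU25 (AT1G17180), an enzyme known to conjugate the explosive trinitrotoluene, had signals of 2025.9, 1909.6 and 1895.3 in wild type and 1671.4, 1409.0 and 1633.8 in spy-3. The spy-3 signals were all below those of wild type, with a log2 fold change of -0.31 (95% interval -0.48 to -0.14), but the difference did not pass over all probe sets (adjusted p = 0.0649 from limma). GSTU28 (AT1G53680) showed the same arrangement, with 701.9, 744.6 and 768.6 in wild type and 632.4, 579.9 and 648.0 in spy-3. Its log2 fold change was -0.25 (95% interval -0.39 to -0.11, adjusted p = 0.0604 from limma). Both genes passed in limma when the arrays were centred on their medians, when 16 or 64 was added to every signal, with robust variances, or when the dimmest 40% of probe sets were dropped (adjusted p = 0.01 to 0.0448), the last of which called 13.5% of the probe sets it kept. Neither passed when any 1 array was left out.

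Among the other bright GSTU genes, no difference passed. GSTU22 (AT1G78340) had signals of 1244.8, 1405.2 and 1395.9 in wild type and 1386.4, 1393.0 and 1471.3 in spy-3. The groups overlapped, and the log2 fold change of 0.07 had a 95% interval of -0.07 to 0.21 (adjusted p = 0.571 from limma). GSTU26 (AT1G17190) had signals of 1345.6, 1228.3 and 1068.4 in wild type and 1286.5, 1293.7 and 1315.0 in spy-3, which overlapped (log2 fold change 0.10, 95% interval -0.10 to 0.30, adjusted p = 0.575 from limma). The 3 spy-3 arrays lay within the range of wild type. GSTU27 (AT3G43800) had signals of 971.2, 959.9 and 973.3 in wild type and 1118.4, 1019.4 and 976.8 in spy-3. These did not overlap but nearly touched, and the log2 fold change of 0.10 (95% interval -0.03 to 0.23) did not pass (adjusted p = 0.395 from limma). For GSTU20 (AT1G78370), which binds the jasmonate-conjugating enzyme FIN219, the groups overlapped and the interval was -0.61 to 0.08. All 4 intervals end below the 0.73 of GSTU23. GSTU18 and GSTU16, between a signal of 32 and the median, had intervals of -0.42 to 0.20 and -0.40 to 0.51.

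GSTU15 (AT1G59670) was dim on all arrays, with signals of 1.7, 4.5 and 2.6 in wild type and 7.6, 9.4 and 9.1 in spy-3. The groups did not overlap, and the log2 fold change of 1.68 (standard error 0.47) did not pass (adjusted p = 0.109 from limma). The size of this value depended on the scale, since it was 0.39 with 16 and 0.12 with 64 added to every signal. GSTU21 (AT1G78360) was equally dim and overlapped between the genotypes, with signals from 3.2 to 14.7.

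Among the P450 genes, CYP71B29 (AT1G13100) had signals of 102.3, 120.9 and 109.4 in wild type and 75.6, 78.4 and 83.7 in spy-3. All 3 spy-3 arrays were below all 3 wild-type arrays. The means of 110.9 ± 9.4 (SD, n = 3) and 79.2 ± 4.1 (SD, n = 3) correspond to a 1.40-fold lower signal in the mutant (log2 fold change -0.48 with a standard error of 0.10; limma, adjusted p = 0.0435). This call was close to the threshold: it was lost in limma when any 1 of the 6 arrays was left out (adjusted p = 0.0848 to 0.139) and by the analysis of variance (adjusted p = 0.0853), with log2 fold changes of -0.54 to -0.42 in the omissions. With 64 added to every signal the value was -0.29 and passed (adjusted p = 0.0436 from limma).

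CYP71B6 (AT2G24180), an enzyme of indole-3-acetonitrile metabolism, was the brightest P450 probe set, with signals of 495.2, 515.1 and 553.2 in wild type and 629.4, 652.5 and 579.9 in spy-3. The spy-3 arrays were all higher, and the log2 fold change was 0.25 (95% interval 0.10 to 0.40, adjusted p = 0.0783 from limma). Of the alternatives run, it passed when the dimmest 40% of probe sets were dropped (adjusted p = 0.0303 from limma) and in no other. CYP71B26 (AT3G26290) had signals of 158.1, 163.4 and 143.7 in wild type and 127.6, 88.6 and 128.9 in spy-3. The genotypes did not overlap, but spy-3 replicate 2 stood well below the other spy-3 arrays, and the log2 fold change of -0.45 had a standard error of 0.16 (adjusted p = 0.187 from limma) and was -0.27 without that array. CYP71B37 (AT3G26330) did not overlap either, with 150.5, 143.7 and 132.5 in wild type and 101.9, 127.4 and 113.9 in spy-3. Here spy-3 replicate 2 was the highest of the spy-3 arrays. Its log2 fold change was -0.32 (standard error 0.10, adjusted p = 0.157 from limma). CYP71B23 (AT3G26210) had signals of 139.2, 138.7 and 121.1 in wild type and 141.5, 138.7 and 155.2 in spy-3, which overlapped (log2 fold change 0.13, 95% interval -0.08 to 0.33, adjusted p = 0.50 from limma).

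CYP84A4 (AT5G04330), which acts in the synthesis of arabidopyrones, had signals of 117.3, 114.9 and 106.9 in wild type and 120.1, 118.4 and 145.3 in spy-3. The groups did not overlap but nearly touched, and the log2 fold change of 0.17 did not pass (95% interval -0.07 to 0.42, adjusted p = 0.435 from limma). CYP71B34, CYP71B28 and CYP51G2, a relative of the sterol demethylase gene, lay between a signal of 32 and the median and overlapped between the genotypes, with log2 fold changes of -0.18, 0.06 and -0.28.

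**Figure D2:**
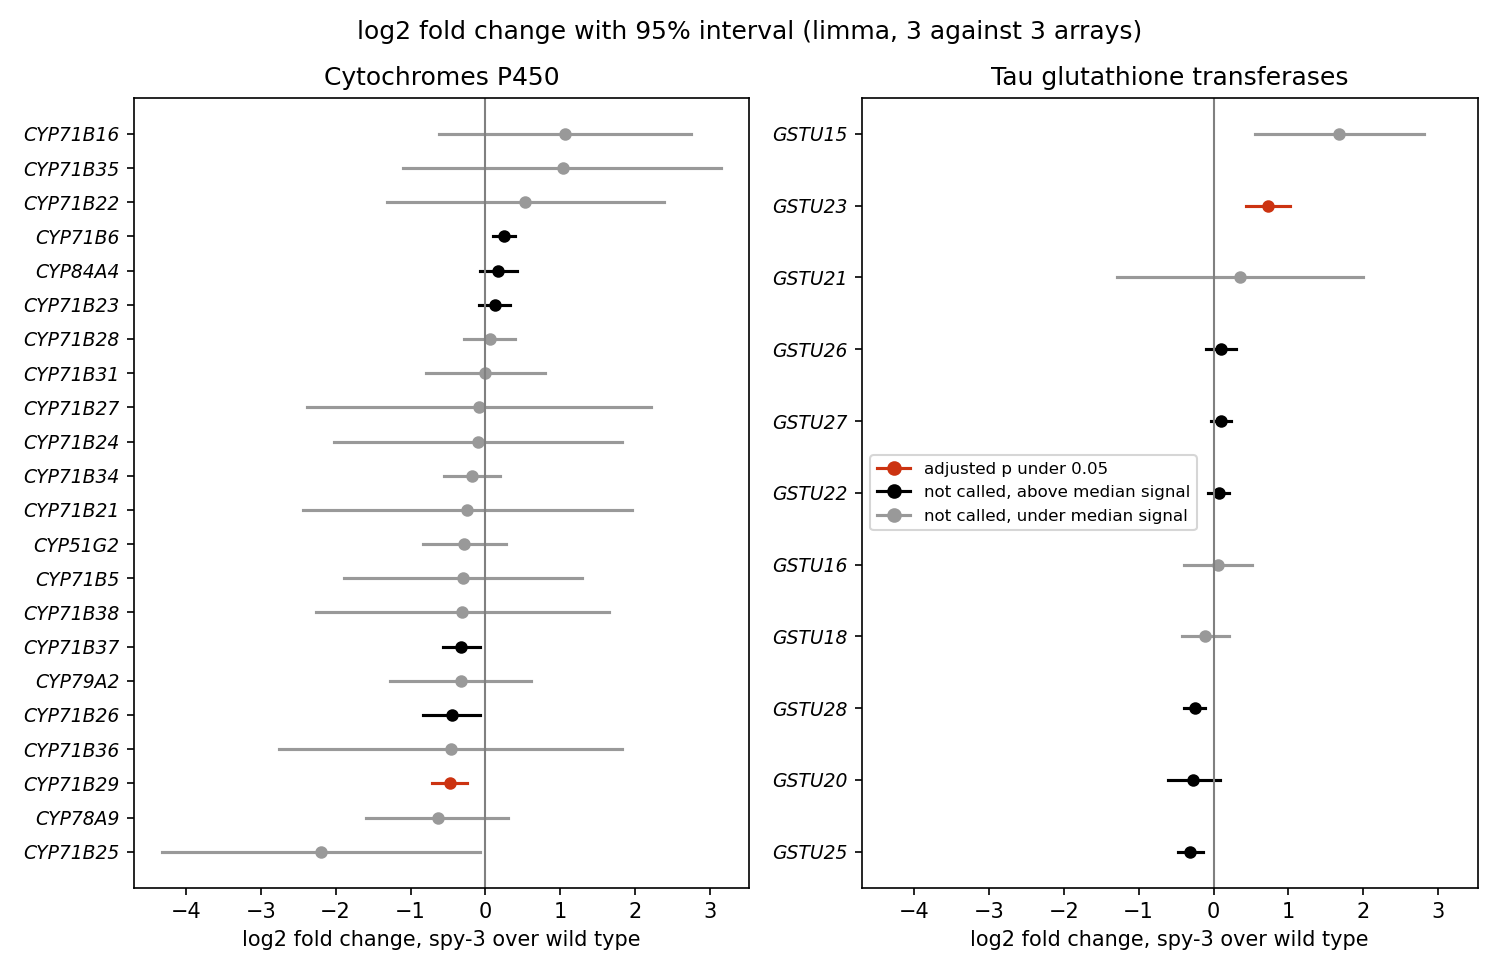
log2 fold change of each member (spy-3 over wild type, horizontal axis) with its 95% interval from limma, for P450 genes (left) and GSTU genes (right). Red marks the calls, black uncalled members above the median signal and grey uncalled members under it. GSTU23 (0.73) and CYP71B29 (-0.48) are the 2 calls, and the grey intervals of dim members reach from -4.32 to 3.15.

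The 13 dimmest P450 genes gave little information on the genotypes. Their signals ran from 0.3 to 27.7, and 19 of the 132 P450 signals were under 1, where they were set to 1. CYP71B31 was under 1 on all 6 arrays. CYP79A2, which starts benzylglucosinolate synthesis from phenylalanine, had signals of 0.5 to 1.8. CYP78A9, a regulator of fruit and seed size, had signals of 16.1, 27.7 and 23.8 in wild type and 9.8, 20.9 and 13.6 in spy-3, and overlapped. CYP71B5, CYP71B16, CYP71B21, CYP71B22, CYP71B24, CYP71B36 and CYP71B38 overlapped as well, with signals of 0.3 to 12.3. Single arrays set the averages of some members: CYP71B35 had a signal of 12.0 on spy-3 replicate 1 and 1.1 to 1.7 on the other 5 arrays, and the pseudogene CYP71B27 had 1.6 on spy-3 replicate 1 against 16.1 and 17.6 on the other spy-3 arrays. The most negative log2 fold change of the families, -2.19 for CYP71B25, came from signals of 9.7, 13.4 and 5.3 in wild type and 0.9, 7.2 and 0.7 in spy-3 (standard error 0.88, adjusted p = 0.246 from limma). The groups overlapped there too. None of the dim P450 genes passed. Their 95% intervals reached as low as -4.32 (CYP71B25) and as high as 3.15 (CYP71B35). The interval of CYP71B31, -0.79 to 0.79, holds no measured spread, because all 6 of its signals were set to 1. Its width comes from the variance shared across probe sets in limma and does not bound a change of the transcript.

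**Figure D3:**
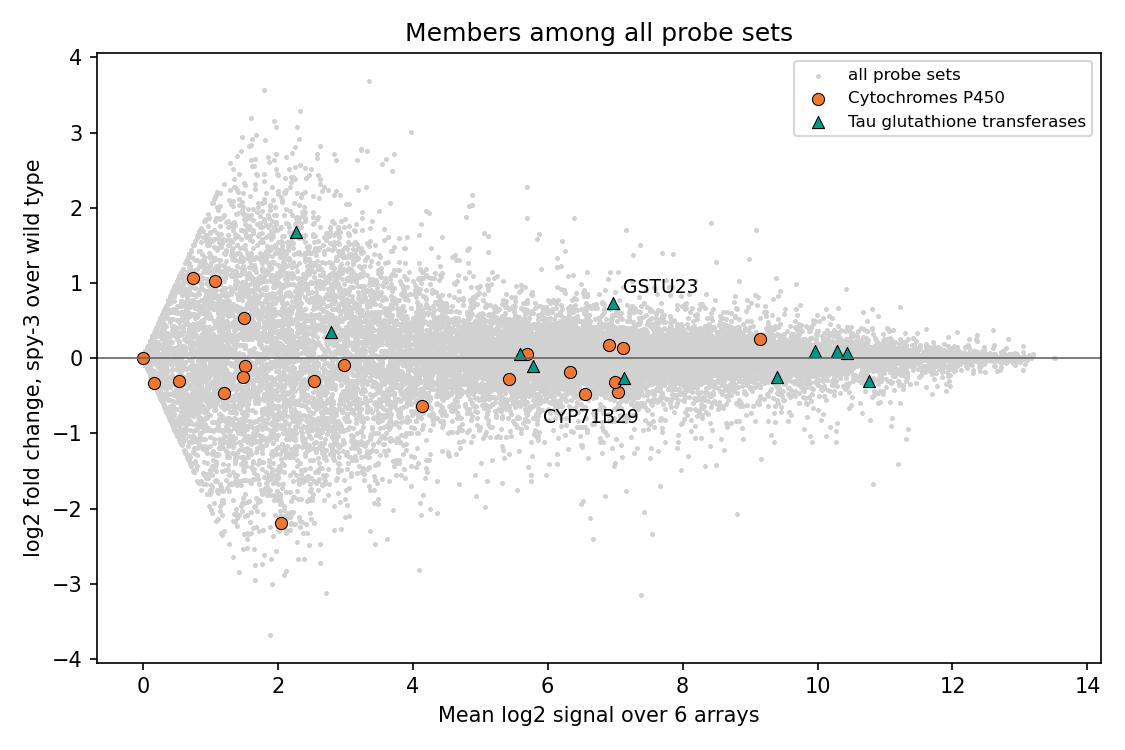
log2 fold change (spy-3 over wild type) against the mean log2 signal over the 6 arrays. Grey points are all 22746 probe sets, circles P450 genes and triangles GSTU genes. The spread of all probe sets narrows with brightness, and GSTU23 and CYP71B29 lie toward the edges of the grey cloud at their brightness.

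Many members are tandem neighbours. In the annotation, GSTU23, GSTU22, GSTU21 and GSTU20 lie within a stretch of 7 genes, GSTU25 and GSTU26 are adjacent, and CYP71B27, CYP71B28 and CYP71B29 lie within 4 genes. The largest run holds 24 genes, 18 of them P450 genes, of which 11 CYP71B genes were measured. None of these 11 passed (median log2 fold change -0.18). Of them, 7 were under a signal of 32, with standard errors of 0.70 to 0.95. The 3 above the median signal had a median of -0.32. Because the ratio of neighbours within an array does not depend on how the arrays were scaled, it was computed for all 11 pairs of neighbours with both signals above 32. The pairs were formed after the values had been seen and are described without a test.

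The log2 ratio of GSTU20 over GSTU23 was 0.65, 0.70 and 0.64 on the wild-type arrays and -0.24, -0.40 and -0.36 on the spy-3 arrays. The difference between the genotypes, -0.99, was many times the spread within either (SD 0.03 and 0.09). GSTU22 over GSTU23 had ratios of 3.55, 3.73 and 4.10 in wild type and 3.03, 3.10 and 3.28 in spy-3, again without overlap. The ratio of GSTU22 over GSTU20 overlapped, with 2.90, 3.03 and 3.46 in wild type and 3.27, 3.50 and 3.64 in spy-3, a difference of 0.34. In this cluster the ratios without overlap were thus those that hold GSTU23. GSTU20 itself had a log2 fold change of -0.27, which is part of the -0.99.

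For the adjacent pair GSTU25 over GSTU26, the log2 ratio was 0.59, 0.64 and 0.83 in wild type and 0.38, 0.12 and 0.31 in spy-3, a difference of -0.41 without overlap. CYP71B29 over CYP71B28 had ratios of 0.90, 1.27 and 1.23 in wild type and 0.44, 0.50 and 0.82 in spy-3, a difference of -0.54, also without overlap. In the large CYP71B run, the ratio of CYP71B23 over CYP71B26 was -0.18, -0.24 and -0.25 in wild type and 0.15, 0.65 and 0.27 in spy-3, and that of CYP71B23 over CYP71B37 shifted by 0.45. In all, 6 of the 11 pairs did not overlap. Each of these 6 holds a gene whose own signals did not overlap (CYP71B29, GSTU25, GSTU23, CYP71B26 or CYP71B37). The ratios reuse those signals and are no separate evidence. Of the 22876 pairs of genes within 10 positions of each other and with signals above 32, 30.8% did not overlap. That share is no matched reference, because the 11 pairs were formed within runs, where genes may lie more than 10 positions apart. Several of the 11 pairs share a gene.

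**Figure D4:**
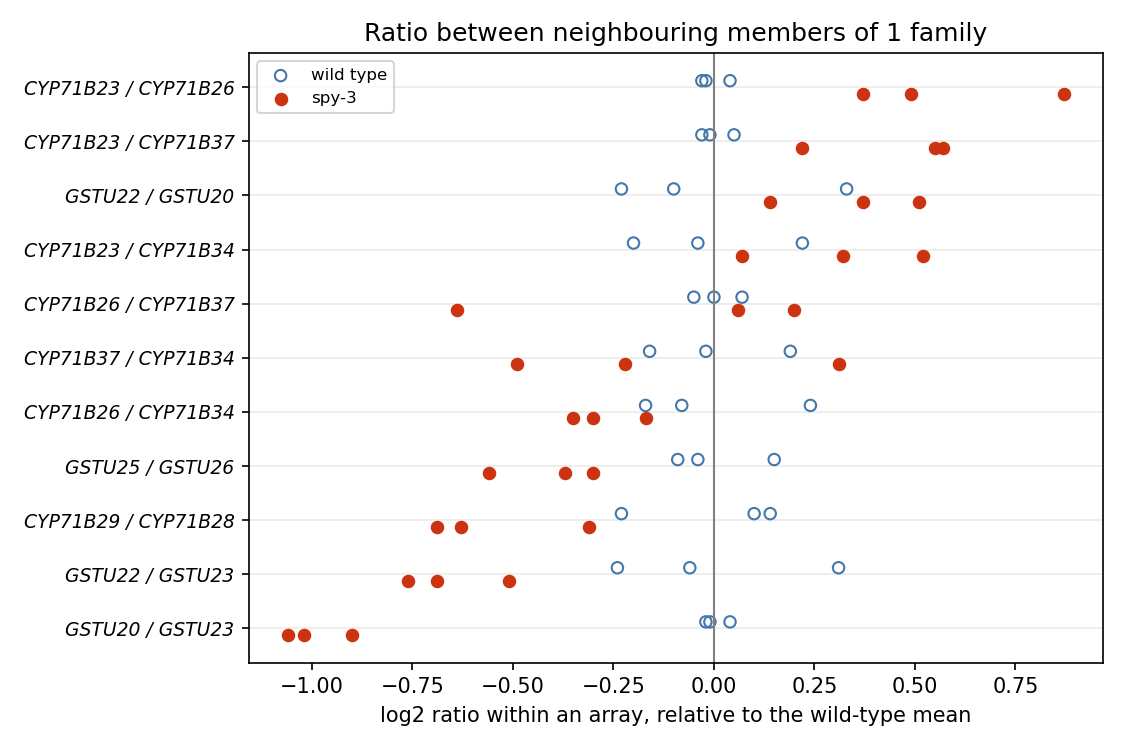
log2 ratio of neighbouring members within each array, drawn relative to the wild-type mean of the pair (horizontal axis). Open circles are wild-type arrays and filled circles spy-3 arrays. The 6 pairs without overlap include GSTU20 over GSTU23, shifted by -0.99, and CYP71B23 over CYP71B26, shifted by 0.58.

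Genes of the pathways around these enzymes were counted from 8 lists, of which 13 genes were measured. Measured means matched by name to a probe set annotated to 1 gene. The annotation lists no gene for 8730 of the 22746 probe sets, so genes without a match may still be on the array. None passed after adjustment in limma or the analysis of variance, against 5.77% and 2.89% of all probe sets. At an unadjusted p of 0.05, limma called 4 (19.2% of all probe sets) and the analysis of variance 2 (17.0%). The genotypes did not overlap for 5 of the 13, against 24.2% of all probe sets. Of these, UGT74B1, FACT and CCR2 were higher in spy-3, and GSTL3 and UGT73B4 were lower. None of the 14 listed redox partners of P450 enzymes was matched to such a probe set. Of other glutathione transferases, GSTL3 had a log2 fold change of -0.20 and GSTF4 one of 0.14 (limma, adjusted p = 0.181 and 0.619). The glutathione reductase genes GR1 and GR, which return oxidized glutathione to its reduced form, had values of 0.06 and 0.14 on the same scale (adjusted p = 0.557 and 0.525). UGT74B1, a glucosyltransferase of glucosinolate synthesis, had signals of 606.7, 542.2 and 494.5 in wild type and 770.0, 721.2 and 608.8 in spy-3. These did not overlap, and the log2 fold change of 0.35 did not pass (adjusted p = 0.14). The beta-glucosidase gene PYK10 had a log2 fold change of -0.02 (95% interval -0.21 to 0.18).

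FACT, which makes caffeate esters of fatty alcohols in suberin-rich tissue, had signals of 58.1, 56.7 and 76.9 in wild type and 88.8, 99.0 and 87.4 in spy-3. These did not overlap either (log2 fold change 0.53; limma, adjusted p = 0.109). For the lignin genes HCT and CCR2 the log2 fold changes were 0.07 and 0.18, with adjusted p of 0.599 and 0.347. Of the xenobiotic-responsive glucosyltransferases, UGT73B4 and UGT73B5 had -0.19 and 0.21 (adjusted p = 0.225 and 0.339), and UGT73C1 had signals of 0.4 to 2.9. The triterpene synthase gene LUP5 was similarly dim, with signals of 0.7 to 6.9.

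Some measured markers of other cells moved with genotype on the same arrays. The same threshold called 5.77% of all probe sets and 9.83% of those above the median signal. The root hair expansins EXPA7 and EXPA18, the 2 measured of 11 root hair names, had signals of 674.6 to 966.3 and 911.7 to 1207.7, and both fell in the mutant by limma (log2 fold changes -0.44 and -0.29; adjusted p = 0.00274 and 0.018). Of 13 names of green tissue, 3 were measured. RCA, the Rubisco activase gene, ranged from 419.0 to 436.9 in wild type and from 271.8 to 301.3 in the mutant (log2 fold change -0.57; limma, adjusted p = 0.0027). SBPASE and PRK were dim, with signals of 1.3 to 33.3, and did not pass (log2 fold changes -1.43 and -0.19; limma, adjusted p = 0.393 and 0.948). No marker of the endodermis, stele, root cap or cortex lists was matched to a probe set annotated to it alone. In whole roots, fewer cells of a type and less RNA per cell cannot be told apart, and the part of these markers in the changes of GSTU23 and CYP71B29 was not tested.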

How the data were processed

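The deposited table holds linear signal intensities from MAS5, which the submitters' processing notes name, with arrays scaled by the authors to a common mean. No detection calls were at hand, and for the MAS5 settings the sources used here give nothing. A floor of 1 was applied before taking log2. The fit covered all 22746 probe sets and all 6 arrays with limma 3.58.1 in R 4.3.3 (lmFit, eBayes with a mean-variance trend), with Benjamini-Hochberg adjustment, and was checked on simulated arrays. "Rose" and "fell" mean an adjusted p under 0.05. Tables were handled with Python 3.11.15 and pandas 2.3.3.

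Of 13513 probe sets annotated to 1 gene, 13436 matched a locus of the RefSeq table of TAIR10.1, which was used for names and gene order only. Neighbours were joined into a run where each lay within 10 positions of the next. Left out were CYP71B30P, a named pseudogene, and 2 probe sets shared by several genes (CYP71B19 with CYP71B20, and CYP79C2 with AT1G58265). AT4G26000 matched the cortex marker PEP by name only and was dropped.

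Signals and statistics are given for members past the threshold and for the 3 brightest of each family, and others are named in ranges and neighbour comparisons. GSTU15, GSTU28, CYP71B37, CYP71B25, CYP84A4, CYP78A9 and other members shown in full were picked with their values in view. Members and lists were chosen with earlier results of these data known. Alternatives were other normalizations, offsets, a filter, variance models, a one-way analysis of variance, a replicate block, stricter thresholds and leaving out each array.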

Additional observations from a re-analysis of the deposited data

How the results depend on the processing

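The count of lower P450 genes was 1 in limma and 0 without the trend, by the analysis of variance, with the replicate block, at the stricter thresholds and in every omission of 1 array (range 0 to 0). The count of higher P450 genes was 0, and 1 when the dimmest 40% were dropped. The count of higher GSTU genes was 1, and 0 without the trend, by the analysis of variance and at the stricter thresholds, with a range of 0 to 1 in the omissions. The count of lower GSTU genes was 0, and 2 with median centring, an offset of 16 or 64, robust variances or the dimmest 40% left out. In the filtered fit the whole comparison also called more, 13.5% of its probe sets against 5.77%. The causes of these shifts were not tested.

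Samples with the same replicate number did not all deviate together (correlations of 0.0195, 0.000306 and 0.0499 over all probe sets, and of 0.1761, -0.1468 and 0.1821 over those above the median signal), so the numbers were not taken as pairs. With the replicate number as a block, GSTU23 passed (adjusted p = 0.0376 from limma) and CYP71B29 did not (adjusted p = 0.109), and 656 probe sets were called in place of 1312. GSTU16, not called, changed sign without wild type replicate 3 (-0.03) and without spy-3 replicate 2 (-0.08), over a range of -0.08 to 0.16 in the omissions. Of 302 values for 19 members under these alternatives, 271 kept their direction and side of the threshold, mostly for members that were not called. Of the 2 calls, GSTU23 kept its call in 8 values and lost it in 8. CYP71B29 kept its call in 6 and lost it in 10. The 6 neighbour ratios without overlap kept their sign in all 48 values, computed after the data were seen. Leaving out 1 array cannot reverse the sign where the groups do not overlap. For the omissions this outcome was therefore fixed in advance and is no check of these ratios. Taking the mean of several probe sets was not run, because no member has more than 1. Low signals and 3 arrays per genotype limit what dim members can show.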
